A study of Mus musculus with 3 samples.

Results

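The genes described here are Il1rl1 and 9 other genes of interleukin-1 (IL-1) receptor signaling, namely the receptor chains Il1rl2, Il1r1, Il1rap, Il18r1 and Sigirr, the ligand Il33, the natural antagonist Il1rn, and the relay genes Myd88 and Irak1. They were chosen by name, and all 10 were found among the 15287 genes of the deposited expression table. Il1rl1 was picked because it was far higher in the library from cells given titanium (Ti) particles, so its difference between Ti and CTL is a description and supports nothing else. RNA-seq was performed on MC3T3-E1, a preosteoblast line that grows from mouse calvaria and is wild type in genotype. CTL cells were left untreated, Ti cells received 10 μg Ti particles per square centimetre for 24 h, and Ti+Se-Met cells received the same particle dose together with 5 μM selenomethionine (Se-Met) for 24 h. Each condition was 1 library, so differences compare libraries without replicates and carry no p-values. The 3 comparisons share libraries, since CTL, Ti and Ti+Se-Met each enter 2 of them.

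The values are FPKM, fragment numbers scaled to transcript length and to library size, which can be compared between genes of different length. From the steps of single fragments in short genes, the libraries were estimated to hold 14250000 (CTL), 14750000 (Ti) and 10100000 (Ti+Se-Met) fragments. Differences are given in log2(FPKM + 1), where the added 1 shrinks the difference of a low gene, and a 2-fold difference on this scale was counted. Folds are plain ratios of FPKM, and the 95% interval after a fold covers counting error only, on fragments estimated from the shortest matched transcript of the gene. The scaling between libraries matters for small differences, because the median of the log2 differences over all 11137 genes past the filter, Ti less CTL, was 0.08 as deposited and -0.13 after each library was rescaled to the same sum. The osteoblast lineage was checked by its markers. Col1a1, the chain of type I collagen, was at 1333.19, 354.2 and 481.63 FPKM in the order CTL, Ti, Ti+Se-Met, which is kept for all triplets of values that follow. Runx2, the lineage transcription factor, was at 26.77, 17.14 and 22.97 FPKM, and Spp1, the gene of osteopontin, at 1261.19, 3705.78 and 4659.49 FPKM, so that these markers differed with the condition too. Alpl, which passed the filter through CTL alone, was at 1.51, 0.2 and 0.2 FPKM, and Col1a2 at 2688.49, 998.91 and 1256.6 FPKM. Of the 8 markers, 5 passed the filter. Against CTL, Alpl, Col1a1 and Col1a2 were at least 2-fold lower in each particle-treated library, and Spp1 was at least 2-fold higher. Of all genes, 3.64% were lower and 3.63% higher in Ti, and 3.32% lower and 2.64% higher in Ti+Se-Met. The later markers Sp7, Ibsp and Bglap stayed below 1 FPKM in every library.

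Receptors of this family bind their ligand with a specific chain and then recruit a shared accessory chain, most often Il1rap. The paired intracellular TIR domains gather Myd88 and the IRAK kinases, which pass the signal through Traf6 and TAK1 to NF-kB and to the MAP kinases. Il1rl1, also called ST2 or T1, encodes the receptor of IL-33, an alarmin that is released by damaged cells. The same gene gives a membrane receptor and a shorter secreted form that binds IL-33 without signaling. It is known from mast cells and type 2 lymphocytes, and from fibroblasts, where it was first found as a gene induced by serum and by Fos.

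RefSeq gives Il1rl1 a pair of start sites that lie 10059 bases apart on chromosome 1 of GRCm38.p6. The gene is known to use a distal promoter mainly in blood cells and a proximal promoter mainly in fibroblasts. The deposited values are 1 number per gene over 6 listed transcripts, so neither the start sites nor the membrane and secreted forms can be told apart in them. The 250 bases before each start are shown because they flank the annotated starts of the gene with the largest difference among the members, at chr1:40429320-40429569 and chr1:40439379-40439628, both on the plus strand. The third sequence is the window of Il1rn at chr2:24336610-24336859, plus strand, shown as the window among the members with an AP-1 match. Capitals mark matches to the motifs searched.
Il1rl1, distal start: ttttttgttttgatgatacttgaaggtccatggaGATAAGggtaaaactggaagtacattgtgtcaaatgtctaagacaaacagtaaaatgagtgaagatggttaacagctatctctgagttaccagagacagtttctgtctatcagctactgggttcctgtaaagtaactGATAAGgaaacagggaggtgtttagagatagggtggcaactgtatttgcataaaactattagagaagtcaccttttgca
Il1rl1, proximal start: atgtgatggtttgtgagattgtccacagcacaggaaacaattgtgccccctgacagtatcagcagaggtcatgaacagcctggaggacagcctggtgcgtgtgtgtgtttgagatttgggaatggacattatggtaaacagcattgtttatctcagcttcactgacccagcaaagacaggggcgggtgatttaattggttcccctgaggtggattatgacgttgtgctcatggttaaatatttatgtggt
Il1rn: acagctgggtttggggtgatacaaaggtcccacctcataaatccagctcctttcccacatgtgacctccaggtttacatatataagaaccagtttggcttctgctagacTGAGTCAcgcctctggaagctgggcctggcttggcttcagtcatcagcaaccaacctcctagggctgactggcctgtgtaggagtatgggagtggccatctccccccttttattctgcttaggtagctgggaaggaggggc

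On both strands, GATAAG was searched for GATA factors, TGANTCA for AP-1, and a fixed pattern for NF-kB. The NF-kB pattern is narrower than the full consensus, so NF-kB sites with other letters were not searched for. Matches to different motifs lay in different windows. These motifs were chosen with the expression values and sequences in view. GATAAG occurred 2 times in the distal Il1rl1 window, starting 216 and 79 bases before the start, and 6.55% of all 32851 RefSeq windows held it. Neither Il1rl1 window held a match to the AP-1 or NF-kB pattern searched. This says only that these patterns are not in the 250 bases, and other NF-kB sites are left open. The AP-1 match of Il1rn, TGAGTCA, began 141 bases before the start, and 6.75% of all windows held such a match. A further Il1rn window held a match to the NF-kB pattern searched, as did 1.41% of all windows. The 17 windows came from 9 of the 10 members, and no entry was found for Sigirr.

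Il1rl1 was at 17.56 (CTL), 221.62 (Ti) and 134.79 FPKM (Ti+Se-Met). In cultures measured in bulk, fewer expressing cells and less RNA per cell cannot be told apart. The Ti library was by far the highest, and the Ti+Se-Met library lay between the other two. In the order of all listed genes by FPKM, Il1rl1 ranked 4528th (CTL), 311th (Ti) and 551st (Ti+Se-Met). Ti exceeded CTL by a fold of 12.6 (interval 11.1 to 14.3), with a log2 difference of 3.58, on at least 267, 3485 and 1451 estimated fragments in CTL, Ti and Ti+Se-Met. Against CTL, the fold in Ti+Se-Met was 7.68 (interval 6.72 to 8.77), with a log2 difference of 2.87. Only Prl2c2, a growth-related hormone gene of the proliferin family, had a larger log2 difference in Ti against CTL, at 4.42. The next gene below Il1rl1 was Gm10058, at 3.42. The place of Il1rl1 in this order depends on the added 1. By plain fold, Prl2c3 stood higher than Il1rl1, at 16.5 (interval 8.56 to 34.3), and Gm10058 was listed at 0 in CTL.

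Between Ti+Se-Met and Ti, Il1rl1 was lower, with a fold of 0.608 (interval 0.572 to 0.647) and a log2 difference of -0.71. This difference shares the Ti library with the difference that chose the gene. It was the 43rd lowest of the 11137 genes, and 0.386% of the genes lay as low or lower. On the log2 scale, 19.9% of the difference between Ti and CTL was undone in Ti+Se-Met, and 42.6% on the FPKM scale. Of the 7 genes at least 8-fold higher in Ti than in CTL on the log2(FPKM + 1) scale, the other 6 differed between Ti+Se-Met and Ti by -0.26 to 0.06. Il1rl1 was the lowest of the 7 in Ti+Se-Met against Ti, as deposited.

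**Figure D1:**
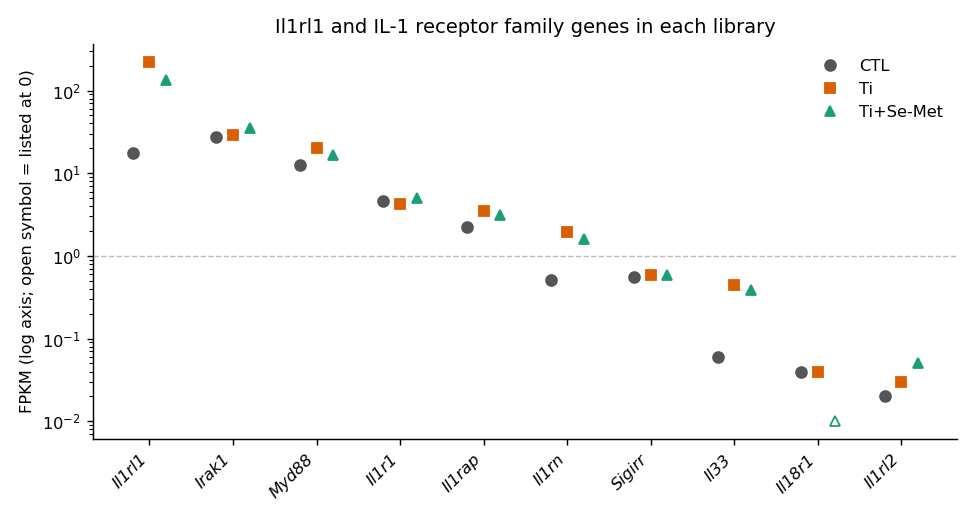
FPKM of the 10 genes in each library on a log axis, ordered by their level in Ti, with 1 point per library. Il1rl1 moves from 17.56 FPKM in CTL to 221.62 in Ti, and the dashed line marks 1 FPKM, below which 4 of the genes lie in every library.

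Of the 10 members, 6 reached 1 FPKM in at least 1 library and entered the counts, namely Il1rl1, Il1r1, Il1rap, Il1rn, Myd88 and Irak1. In Ti against CTL, 1 of the 6 was at least 2-fold higher, which was Il1rl1 itself, against 3.63% of all genes, and 0 were at least 2-fold lower, against 3.64%. In Ti+Se-Met against CTL, Il1rl1 was again the 1 member past 2-fold, where 2.64% of all genes were higher and 3.32% lower. Between Ti+Se-Met and Ti, 0 members were past 2-fold, where 0.162% of genes were higher and 0.0629% lower. In either direction, 7.26%, 5.96% and 0.224% of all genes were past 2-fold in these 3 comparisons. At 1.5-fold, the members past the limit were Il1rl1, Il1rn and Myd88 in Ti against CTL, where 15.5% of all genes were higher and 11.3% lower (26.8% in all). In Ti+Se-Met against CTL they were Il1rl1 and Il1rn, where 10.4% of genes were higher and 11.7% lower (22.1% in all). Il1rl1 was picked for its difference between Ti and CTL. Il1rn passed the filter only through the particle-treated libraries, where it was higher. These counts at 1.5-fold against CTL therefore support nothing about the members. Against Ti, Ti+Se-Met had Il1rl1 alone past 1.5-fold, downward, where 0.844% of genes were higher and 1.28% lower (2.12% in all). The members that did not enter the counts were Il1rl2, Il33, Il18r1 and Sigirr.

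**Figure D2:**
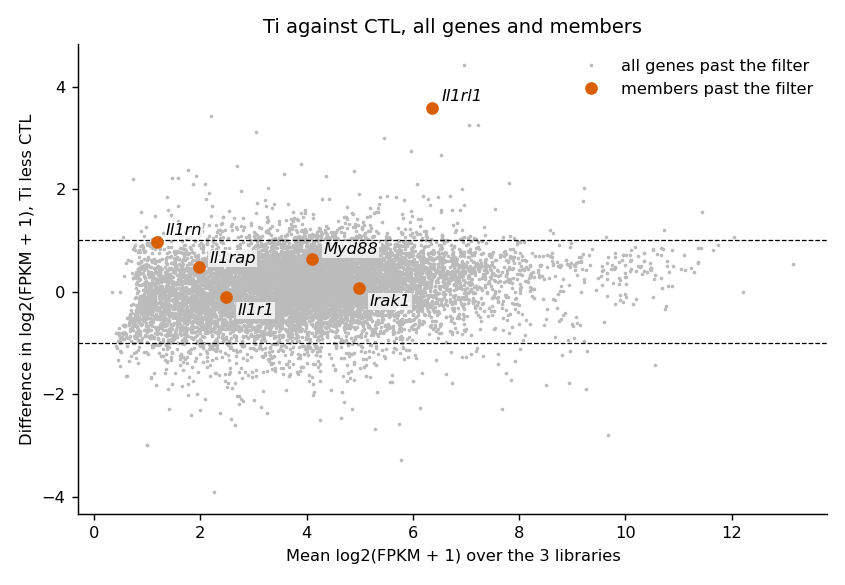
Difference in log2(FPKM + 1) between Ti and CTL against the mean level, for the 11137 genes past the filter (grey) and the 6 members among them (orange). Dashed lines mark 2-fold, and Il1rl1 stands at 3.58 while the other 5 members lie between -0.10 and 0.97.

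The accessory chain Il1rap, which IL-33, IL-1 and IL-36 receptors share, was at 2.21 (CTL), 3.48 (Ti) and 3.16 FPKM (Ti+Se-Met). CTL was the lowest, and both particle-treated libraries were close to each other. Ti exceeded CTL by a fold of 1.57 (interval 1.16 to 2.17), and the fold was 0.908 in Ti+Se-Met against Ti (interval 0.662 to 1.24), which included equal levels. Per length of transcript, the Il1rl1 level was 7.95 times that of Il1rap in CTL, 63.7 times in Ti and 42.7 times in Ti+Se-Met. The ratio counts RNA, including that of the secreted form, and not receptor chains.

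Il1r1, the signaling receptor of IL-1α and IL-1β, was nearly level, at 4.67 (CTL), 4.28 (Ti) and 4.95 FPKM (Ti+Se-Met). Its fold was 0.916 in Ti against CTL (interval 0.779 to 1.08) and 1.16 in Ti+Se-Met against Ti (interval 0.968 to 1.38). Both intervals included equal levels, and rescaled to the same sum the log2 difference in Ti against CTL was -0.29 in place of -0.10. The Il1rl1 level was 3.76 times that of Il1r1 in CTL and 51.8 times in Ti.

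The other receptor chains were scarce. Sigirr, a receptor-like inhibitor of IL-1 signaling, was at 0.55, 0.58 and 0.58 FPKM on about 9 to 13 estimated fragments per library. Its fold in Ti against CTL had an interval of 0.472 to 2.81, and the direction of its difference depended on the scaling. Il1rl2, the IL-36 receptor, was at 0.02, 0.03 and 0.05 FPKM, which is about 1 fragment per library. Il18r1, the ligand-binding chain for IL-18, had 0.04 FPKM in both CTL and Ti and was listed at 0 in Ti+Se-Met. No difference in Sigirr, Il1rl2 or Il18r1 was detectable at this depth.

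Among all 8 listed genes of the receptor family, the share of Il1rl1 in the summed FPKM was 62.3% (CTL), 94% (Ti) and 90% (Ti+Se-Met). The summed FPKM of the 7 others was 10.6, 14.2 and 15.0. Il18rap, the accessory chain for IL-18 and not a member of the set, made up much of the difference in that sum, at 3.08, 5.83 and 6.26 FPKM. Ti exceeded CTL by a fold of 1.89 (interval 1.6 to 2.25), and its log2 difference of 0.74 stayed below the 2-fold limit. Il1r2, the decoy receptor of IL-1, was at 0.07 FPKM in CTL and was listed at 0 in both particle-treated libraries.

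Among the protein-coding genes of RefSeq, the only ones looked at here, 6 of these receptor genes stand next to each other on mouse chromosome 1. Their order is Il1r2, Il1r1, Il1rl2, Il1rl1, Il18r1 and Il18rap, with 0 other protein-coding genes between them. The direct neighbours of Il1rl1, Il1rl2 and Il18r1, were both at or below 0.05 FPKM in every library, on either side of a gene that reached 221.62 FPKM. Outside the run, Map4k4, a kinase gene on the Il1r2 side, was at 37.9, 50.6 and 55.25 FPKM. On the far side of Il18rap, Slc9a4, a sodium-proton exchanger gene, was at 0.02, 0.06 and 0.03 FPKM, and Mfsd9 was at 1.04, 0.92 and 0.59 FPKM. Il1r2, Il1rl2 and Il18r1 were too low to reach 2-fold on the log2(FPKM + 1) scale. The log2 difference in Ti against CTL was -0.10 for Il1r1 and 0.74 for Il18rap, beside 3.58 for Il1rl1, which was picked for this value.

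**Figure D3:**
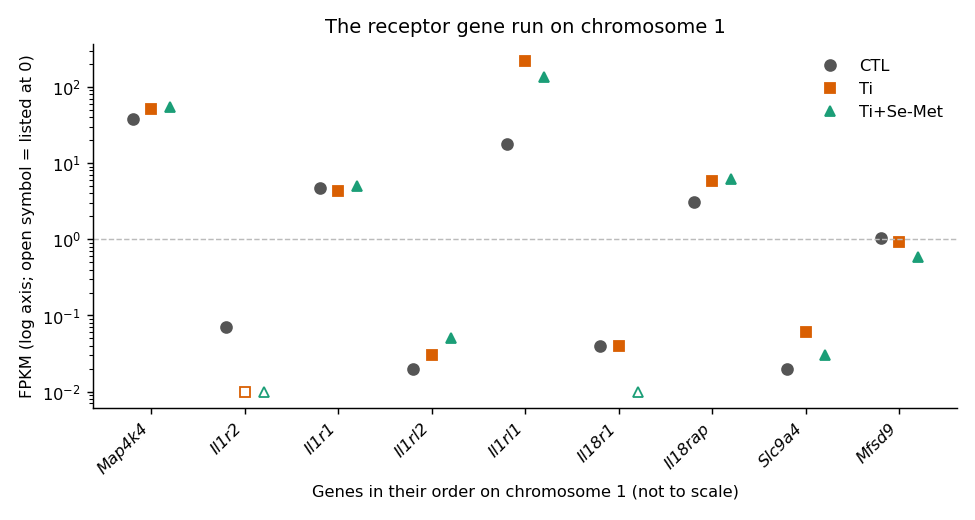
FPKM on a log axis of the listed protein-coding genes around Il1rl1, with open symbols for genes listed at 0. The genes are in their order along chromosome 1 and not to scale. Il1rl1 is the highest gene in Ti at 221.62 FPKM, while its direct neighbours Il1rl2 and Il18r1 stay at or below 0.05 FPKM.

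Il33, the ligand of Il1rl1, was near the limit of detection, at 0.06 (CTL), 0.45 (Ti) and 0.39 FPKM (Ti+Se-Met). About 2, 16 and 9 fragments stand behind these values, and both particle-treated libraries were above CTL. Ti exceeded CTL by a fold of 7.5, with a wide interval of 1.82 to 69.3. In Ti the ligand was thus below 1 FPKM while its receptor was at 221.62 FPKM.

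Il1rn, which encodes the IL-1 receptor antagonist that occupies Il1r1 without signaling, was at 0.51 (CTL), 1.95 (Ti) and 1.62 FPKM (Ti+Se-Met). It was lowest in CTL, on about 4, 17 and 9 fragments, and passed the filter only through the particle-treated libraries. Ti stood above CTL by a fold of 3.82 (interval 1.34 to 16.8), and the log2 difference of 0.97 lay just under 2-fold because of the added 1. With 0.1 added in place of 1, Il1rn passed 2-fold in both comparisons with CTL. In Ti+Se-Met against CTL its fold was 3.18, and the interval of 0.886 to 14.1 included equal levels. The interval for Ti+Se-Met against Ti, 0.304 to 1.83, included equal levels.

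The list of ligands and natural antagonists held 11 genes, of which 5 were listed and 3 passed the filter. In any comparison, 0 of the 3 were past 2-fold. Of all genes, 7.26% (Ti against CTL), 5.96% (Ti+Se-Met against CTL) and 0.224% (Ti+Se-Met against Ti) were. The 3 included Il1rn, which missed 2-fold in Ti against CTL because of the added 1. Il18, a ligand stored as an inactive precursor, was at 7.9, 4.9 and 5.11 FPKM, with a fold of 0.62 in Ti against CTL (interval 0.425 to 0.886). Its soluble inhibitor Il18bp was at 5.18, 6.46 and 4.33 FPKM. Il1a was at 0.04 FPKM in CTL, listed at 0 in Ti and at 0.05 FPKM in Ti+Se-Met. Il1b, Il36a, Il36b, Il36g, Il36rn and Il1f10 were not analysed here.

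Myd88, the adaptor that links the receptors to the IRAK kinases, was at 12.74 (CTL), 20.24 (Ti) and 16.73 FPKM (Ti+Se-Met). Ti was the highest and CTL the lowest. The fold was 1.59 in Ti against CTL (interval 1.38 to 1.82) and 0.827 in Ti+Se-Met against Ti (interval 0.717 to 0.954). The log2 difference in Ti against CTL was 0.63 as deposited and 0.41 after rescaling to the same sum.

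Irak1, the kinase that is recruited to Myd88 and then released to Traf6, was at 27.77, 29.21 and 35.18 FPKM. The highest level was in Ti+Se-Met, unlike in Myd88. Its fold was 1.05 in Ti against CTL (interval 0.96 to 1.15), where the direction turned with the scaling, from a log2 difference of 0.07 as deposited to -0.15 with the same sum. Relative to Ti, Ti+Se-Met stood at a fold of 1.2 (interval 1.10 to 1.32), higher under each of the 4 scalings.

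Of the 17 genes of the relay from Myd88 to TAK1, 1 was at least 2-fold higher in Ti than in CTL and 0 were lower, where 3.63% of all genes were higher and 3.64% lower, so the count was near that of all genes. The median log2 difference of the list was -0.14, against 0.08 over all genes. The gene past 2-fold was Irak3, also called IRAK-M, a kinase-dead member of the family that restrains IL-1 and Toll-like receptor signals. Irak3 was at 1.88, 5.49 and 5.65 FPKM, with a fold of 2.92 in Ti against CTL (interval 2.22 to 3.85). Irak2, which sustains the signal after Irak1, was at 9.53, 15.79 and 20.99 FPKM. It was past 2-fold in Ti+Se-Met against CTL, with a log2 difference of 1.06, except with the same sum. In that comparison, 2 of the 17 genes were at least 2-fold higher as deposited, Irak2 and Irak3, and 0 were lower. Of all genes, 2.64% were higher and 3.32% lower. Tirap, a bridging adaptor, was at 3.49, 6.22 and 4.26 FPKM.

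Several relay genes were lower with Ti, each by less than 2-fold on the log2(FPKM + 1) scale as deposited. Tab2, which joins TAK1 to ubiquitin chains, was at 67.88, 38.68 and 53.78 FPKM, with a fold of 0.57 in Ti against CTL (interval 0.542 to 0.599) and of 1.39 in Ti+Se-Met against Ti (interval 1.31 to 1.47). With the same sum, Tab2 was the 1 relay gene at least 2-fold lower in Ti than in CTL. The ubiquitin ligase gene Peli3 was at 4.33, 2.17 and 2.75 FPKM, and Peli2 at 14.97, 9.71 and 10.33 FPKM. Ube2n, the ubiquitin-conjugating enzyme that acts with Traf6, was at 165.31, 113.58 and 98.93 FPKM, while its partner Ube2v1 was at 75.87, 104.98 and 107.34 FPKM. Traf6 and Map3k7, the gene of TAK1, were closer to CTL, with folds of 0.868 and 0.903 in Ti against CTL.

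In the list of IKK and NF-kB genes, 0 of 11 were past 2-fold in any comparison, where 7.26% (Ti against CTL), 5.96% (Ti+Se-Met against CTL) and 0.224% (Ti+Se-Met against Ti) of all genes were. The nearest to the limit was Rela, the main activating subunit, at 30.41, 58.97 and 52.25 FPKM, with a log2 difference of 0.93 in Ti against CTL. Nfkbib was at 10.2, 18.61 and 15.67 FPKM. Nfkbia, an inhibitor that NF-kB itself induces, was at 21.84, 19.32 and 20.5 FPKM, with a fold of 0.885 in Ti against CTL (interval 0.772 to 1.02).

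Genes known to respond to IL-1 and NF-kB were taken as a further list, of which 13 passed the filter. In Ti against CTL, 1 of the 13 was past 2-fold, near the share of 7.26% over all genes. It was Saa3, an acute-phase gene that was listed at 0 in CTL, at 1.09 FPKM with Ti and at 0.51 FPKM with Ti plus Se-Met. Saa3 passed the filter through the Ti library alone, on about 0, 7 and 2 fragments, and its counting interval for Ti over CTL began at 1.39-fold and had no upper end. The median log2 difference of the list was 0.17 as deposited and -0.03 with the same sum. Tnfaip3, a feedback inhibitor, was at 6.6, 6.48 and 7.48 FPKM, Mmp13, a collagenase gene, at 17.56, 16.41 and 17.79, and Il6 at 0.99, 0.68 and 1.35. Ccl2, a monocyte chemokine, was at 22.1, 37.47 and 34.67 FPKM. The cytokine gene Lif was at 1.41, 3.76 and 3.6 FPKM, with a fold of 2.67 in Ti against CTL (interval 2.04 to 3.54). Its log2 difference of 0.98 was just under the limit because of the added 1. Ptgs2, the gene of cyclooxygenase-2, was at 6.1, 13 and 51.82 FPKM. It was the 1 gene of the list that differed 2-fold between both particle-treated libraries, in the direction opposite to Il1rl1. Of all genes, 0.162% were that much higher with Se-Met added to the particles, and 0.0629% that much lower. For Ptgs2, Ti exceeded CTL by a fold of 2.13 (interval 1.88 to 2.41). As with Lif, the added 1 kept its log2 difference there, 0.98, just under the limit.

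**Figure D4:**
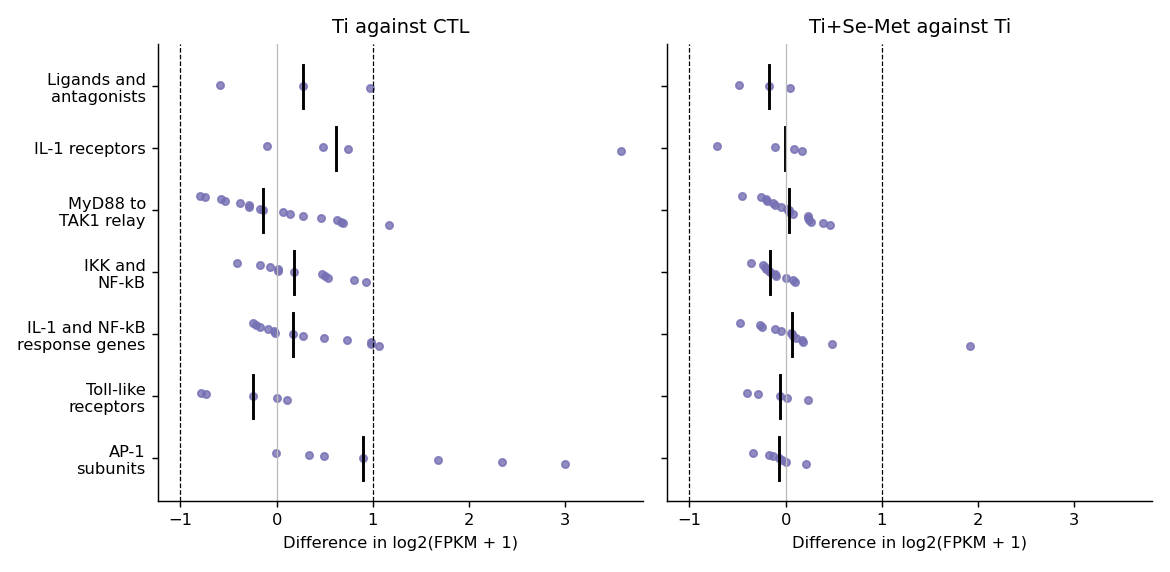
Difference in log2(FPKM + 1) for each gene past the filter in 7 lists, with the list median as a black bar and dashed lines at 2-fold, for Ti against CTL (left) and Ti+Se-Met against Ti (right). Il1rl1 at 3.58 lies far from the other IL-1 receptors, and in the AP-1 list 3 of 7 genes lie past 2-fold on the left and 0 on the right.

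AP-1 factors were listed because Il1rl1 is known as a gene induced by Fos. In Ti against CTL, 3 of the 7 AP-1 genes were at least 2-fold higher, namely Fos, Fosl1 and Junb, and 0 were lower, where 3.63% of all genes were higher and 3.64% lower. The median log2 difference of the 7 was 0.90, against 0.08 over all genes. Earlier results of these data already showed Fosl1 among the highest rises, so the count is not independent. Fos passed the filter only through the particle-treated libraries, where it was high, so it could hardly have counted as lower. Fosl1 was at 10.18, 88.45 and 84.3 FPKM, Junb at 9.12, 50.44 and 49.13 FPKM, and Fos at 0.43, 3.58 and 3.07 FPKM. In each of these, the Ti and Ti+Se-Met libraries were close to each other and far above CTL. For Ti+Se-Met against Ti the fold of Fosl1 was 0.953 (interval 0.891 to 1.02), beside 0.608 for Il1rl1. The same 3 genes were past 2-fold under each of the 4 scalings. Fosl2 was nearly level between CTL and Ti, at 42.21 and 42.07 FPKM.

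The genes most like Il1rl1 were taken as the 10 with the smallest Euclidean distance between their profiles of log2(FPKM + 1) over the 3 libraries, each centred on its own mean, taken over the 8729 genes whose mean FPKM reached 5. With 3 libraries this names genes that are high in both particle-treated libraries and says nothing of shared control. In order of distance, from 0.33 to 0.91, they were Gm10058, Hmga1, Fosl1, Prl2c3, Tnfrsf12a, Sgk1, Hmga2, Prkg2, Junb and Cdt1, and the next gene lay at 0.94. Gm10058, a predicted gene, was listed at 0 in CTL, at 9.7 FPKM in Ti and at 7.95 FPKM in the Ti+Se-Met library. Hmga1 and Hmga2, which encode architectural chromatin proteins of growing cells, were at 33.11, 324.18 and 301.9 FPKM and at 27.05, 175.95 and 155.38 FPKM. Tnfrsf12a, the receptor of the cytokine TWEAK, was at 28.15, 278.01 and 289.19 FPKM. Sgk1, a kinase gene induced by serum and glucocorticoids, was at 16.64, 117 and 116.98 FPKM. Prkg2, a cGMP-dependent kinase gene, was at 1.28, 11.44 and 8.44 FPKM, and Cdt1, which licenses DNA replication, was at 3.16, 19.48 and 19.09 FPKM. Prl2c3, of the proliferin family, was at 0.97, 16.03 and 16.08 FPKM, and its reads could be split with near-identical copies.

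**Figure D5:**
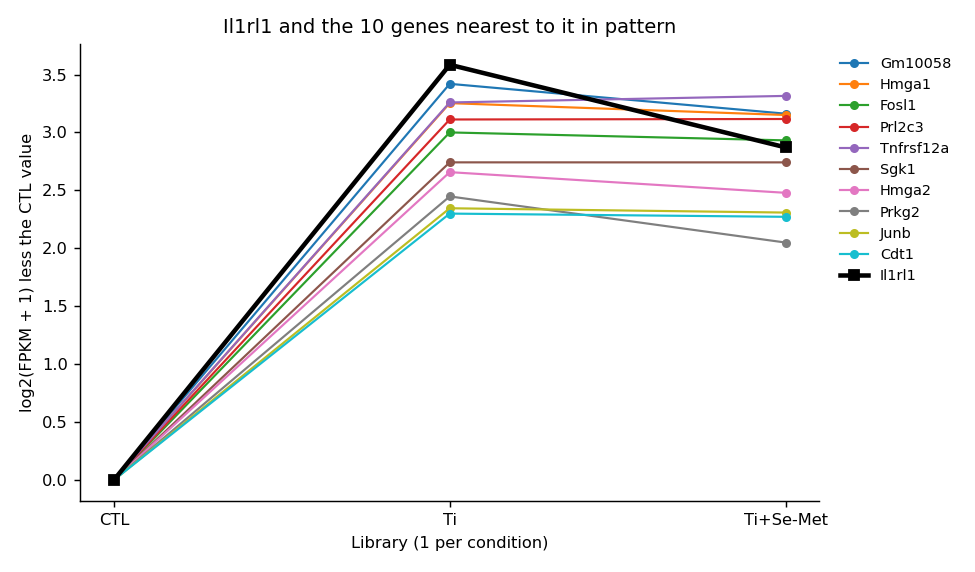
log2(FPKM + 1) in each library less the CTL value, for Il1rl1 (black) and the 10 genes nearest to it in pattern (colours). The 10 genes reach 2.30 to 3.42 in Ti and mostly stay there in Ti+Se-Met, while Il1rl1 goes from 3.58 to 2.87.

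Cells that are known for high Il1rl1 were looked for by their markers. Of 8 mast cell markers, 2 were listed, and their summed FPKM was 0.22 (CTL), 0.09 (Ti) and 0.08 (Ti+Se-Met). Of 9 lymphocyte markers, 2 were listed, Gata3 and Rora, with sums of 1.17, 1.07 and 1.06 FPKM, and 4 of 6 endothelial markers were listed, with sums of 0.23, 0.51 and 0.52 FPKM. The 4 listed macrophage markers of 9 summed to 32.5, 31.8 and 27.8 FPKM. Nearly all of this came from Lyz2, at 26.72, 14.76 and 12.42 FPKM, and from Cd14, a co-receptor for bacterial lipopolysaccharide, at 5.7, 16.56 and 14.81 FPKM. Cd68 and Csf1r were at or below 0.42 FPKM in every library. Ptprc, Adgre1 and Itgam, defining genes of macrophages, were not analysed here. The part of Cd14-bearing cells in these values was not tested.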

How the data were processed

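The authors removed low-quality and adapter reads, aligned the remainder with HISAT2 and deposited FPKM values per gene for 3 libraries, 1 per condition, rounded to 2 decimals. The methods name HTSeq for counting, while the submitters' processing notes name StringTie and the build mm9, and which tool made the FPKM is not given in the sources used here. RefSeq of GRCm38.p6 holds 83.8% of the transcripts that the table lists, and coordinates are given for its promoter windows only. Column names gave the library of each column, with 0 columns left over.

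Scripts in Python (3.11.15), using pandas (2.3.3), numpy (2.4.6) and scipy (1.17.1), took differences in log2(FPKM + 1) for the 11137 genes that reached 1 FPKM in any library, and 2-fold was counted. A count model does not apply to FPKM. The depths come from single-fragment steps among 453 short genes (350 to 1000 bases, GENCODE annotation), with 150 bases subtracted from each length. Of the low values used, 60.7%, 52.3% and 48.9% lay on a step in CTL, Ti and Ti+Se-Met, against 18% by chance, so the depths are approximate. Intervals are 95% exact conditional binomial intervals. They cover counting error only and take the depths as exact.

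The named genes are the 10 members, genes of the lists, the 10 nearest in pattern and, named after their values were seen, the neighbours on chromosome 1 and Prl2c2. The members and lists were chosen with earlier results of these data known. The steps were tested on simulated data. Alternatives were 3 other scalings, pseudocounts of 0.1 and 5, other filters, and thresholds of 1.5-fold and 4-fold.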

Additional observations from a re-analysis of the deposited data

How the results depend on the processing

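No paired analysis was possible because there was 1 library per condition, which also leaves no replicate to drop. For Il1rl1, the log2 difference in Ti against CTL of 3.58 became 3.36 after scaling all libraries to 1 common sum (TPM) and 3.33 with a pseudocount of 5, and in Ti+Se-Met against CTL 2.87 became 2.63 with a pseudocount of 5. In Ti+Se-Met against Ti, -0.71 stayed within its counting interval under all 5 alternatives run. The number of members past 2-fold in Ti against CTL, 1, became 2 with a pseudocount of 0.1 (Il1rn was added), 3 at 1.5-fold (Il1rn and Myd88), where 26.8% of all genes were past the limit in either direction, and 3 with a pseudocount of 0.1 and no filter (Il33 and Il1rn), a setting chosen after seeing the data. Under these settings, the 1 member past 2-fold in Ti+Se-Met against CTL became 2, 2 and 3, where 22.1% of all genes were past 1.5-fold. The share of all genes was not taken with a pseudocount of 0.1, so the counts with it cannot be set against a background. For Ti+Se-Met against Ti, 0 became 1 at 1.5-fold, which was Il1rl1, against 2.12% of all genes. Dropping the filter cannot alter these numbers, since with 1 added no gene under 1 FPKM can differ 2-fold. Of the 10 genes nearest to Il1rl1, 6 were shared with a pseudocount of 5 and 9 each with a pseudocount of 0.1, with no filter and with the filter of 1 FPKM, the last chosen after seeing the data. The mean of at least 5 FPKM is the setting used, and a scaling moves all genes nearly alike, so these say nothing of stability. A higher pseudocount shrinks low genes by construction. Depth was lowest in Ti+Se-Met, where 1 fragment in 1 kb was worth 0.099 FPKM, and Il1rl2, Il18r1 and Il33 are limited by this depth.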

Other observations

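Toll-like receptors share the TIR domain and the Myd88 relay with the IL-1 receptors. Of 12 genes, 9 were listed and 5 passed the filter, and 0 of the 5 were past 2-fold in Ti against CTL (median log2 difference -0.25), where 3.63% of all genes were higher and 3.64% lower (median 0.08). Tlr2, which senses bacterial lipoproteins, was the highest at 14.87 (CTL), 16.09 (Ti) and 16.29 FPKM (Ti+Se-Met). Tlr5, the flagellin receptor, was at 5.16, 2.58 and 3.22 FPKM, with a fold of 0.5 in Ti against CTL (interval 0.396 to 0.629). Tlr1, a partner of Tlr2, was at 3.46, 1.69 and 1.04 FPKM, with a fold of 0.488 in Ti against CTL (interval 0.359 to 0.665). Only the added 1 kept Tlr1 and Tlr5 from counting as 2-fold lower in Ti than in CTL. Tlr1 was the 1 gene of the list at least 2-fold lower in Ti+Se-Met than in CTL, where 2.64% of all genes were higher and 3.32% lower. Tlr4 was equal in CTL and Ti at 6.08 FPKM and was at 4.81 FPKM in Ti+Se-Met.

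A list of early and delayed-early genes of the serum response was taken because Il1rl1 is known from that response. It includes Hmga1 and Tnfrsf12a, which earlier results had already shown to be high in Ti, so its count supports nothing. In Ti against CTL, 6 of its 12 genes were at least 2-fold higher and 0 were lower, where 3.63% of all genes were higher and 3.64% lower, and the median log2 difference was 0.97 (4 genes past 2-fold with the same sum). Besides Hmga1 and Tnfrsf12a, these were Egr1 (6.44, 20.7 and 23.16 FPKM), Myc (14.01, 33.72 and 25.22), the urokinase receptor gene Plaur (5.95, 19.06 and 22.25) and the ERK phosphatase gene Dusp6 (11.3, 24.76 and 29.5). Ccnd1, the gene of cyclin D1, was nearly level as deposited, at 250.25, 263.31 and 264.82 FPKM. Srf, the transcription factor of the response, was at 20.98, 18.83 and 30.63 FPKM, with a fold of 1.63 in Ti+Se-Met against Ti (interval 1.47 to 1.81).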
